A study of Mus musculus with 10 samples.

Results

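Interferon-stimulated genes are the genes that cells switch on when they sense interferon, the antiviral cytokine. Messenger RNA levels of 43 such genes were described in mouse bone-marrow-derived macrophages. The genes were taken by symbol from a textbook list, and symbols absent from the deposited table were left out. All 43 are therefore among its 11617 listed genes by the way they were chosen. Beyond that, no measured value entered the rule, but earlier results of these data were known when the choice was made. All 43 also passed the filter of a mean of at least 1 CPM (read counts scaled to library size), which 11407 genes passed. All 43 are annotated as protein-coding genes.

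The macrophages came from C57BL/6 mice, for which the labels give an age of 7 weeks in one field and 6 weeks in another. No genotype change was given for any group. All 5 groups share the same culture in DMEM medium, with serum at 10% and the myeloid growth factor GM-CSF at 50 ng/ml. The groups were untreated control cells, cells given AmTARS for 1 h or 3 h, and cells given Pam3csk4 for 1 h or 3 h, with 2 libraries in each group (n = 2). AmTARS is, by its name, a threonyl-tRNA synthetase, that of Akkermansia muciniphila, a gut bacterium. Pam3csk4, a synthetic lipopeptide with 3 acyl chains, is an agonist of the receptor TLR2 paired with TLR1, and the series set out to compare the pair as ligands of TLR2. Pam3csk4 was given at 10 ng/ml and the AmTARS dose is written as 0.5 with the unit mm, so a comparison of the ligands is not one of matched doses. The control carried no time label. Whether the 2 libraries within a group were separate cultures or mice is not stated, and p-values measure only the spread between these libraries, which may be technical.

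Type I interferons bind the receptor IFNAR1/IFNAR2, whose kinases JAK1 and TYK2 activate the complex ISGF3, with STAT2 and IRF9 among its parts. It binds the interferon-stimulated response element (ISRE) in the promoters of many interferon-stimulated genes. Interferon gamma acts through JAK1 and JAK2, and promoters of its target genes carry GAS elements. In macrophages, Toll-like receptors that signal through the adaptor TRIF induce interferon beta readily, whereas TLR2 at the cell surface signals through MyD88 to NF-kB. Some interferon-stimulated genes, among them Cxcl10, Irf1 and Gbp2, can also be driven by NF-kB or IRF1.

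To describe motif matches near the starts of these genes, promoters were read from the RefSeq table of the GRCm38.p6 build. Each window held 300 bases (250 before and 50 after the annotated start). Windows were found for 36 of the 43 genes (46 windows). An ISRE core, written here as GAAA, then any 2 bases, then GAAA, and searched on both strands, occurred in 17 of the 46 windows (37.0%), against 3.44% of all 32851 windows. The letters TTCNNNGAA, a GAS element, which reads the same on both strands, occurred in 19.6% of the windows of these genes and in 8.3% of all windows. The NF-kB consensus, searched on both strands, occurred in 6.52% and 4.51%. A match is a description of the letters and not a measured binding site, and matches of different motifs may overlap.

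The bases before the RefSeq start are printed 5′ to 3′ on the gene's own strand for 6 genes, with motif matches in capitals. Cxcl10, Ifi205, Gbp2 and Isg15 are the genes with the largest rise after 3 h of Pam3csk4. Irf1 and Ifit3 were added after their values were seen, Irf1 as a gene with an NF-kB match and Ifit3 as a gene with ISRE cores that fell. Cxcl10 lies at chr5:92348890-92349139 (minus strand) with an ISRE core from position -213 and NF-kB matches from -159 and -103, counted back from the start. Ifi205 lies at chr1:174031756-174032005 (minus strand) with 1 ISRE core in these bases, from -134. Gbp2 lies at chr3:142620413-142620662 (plus strand) with 1 ISRE core from -59. Isg15 lies at chr4:156200819-156201068 (minus strand), where 3 overlapping ISRE cores form 1 run from -78 to -57. Irf1 lies at chr11:53769764-53770013 (plus strand) with a GAS element from -90 and an NF-kB match from -13. Ifit3 lies at chr19:34583279-34583528 (plus strand) with ISRE cores from -156 and -122.
Cxcl10: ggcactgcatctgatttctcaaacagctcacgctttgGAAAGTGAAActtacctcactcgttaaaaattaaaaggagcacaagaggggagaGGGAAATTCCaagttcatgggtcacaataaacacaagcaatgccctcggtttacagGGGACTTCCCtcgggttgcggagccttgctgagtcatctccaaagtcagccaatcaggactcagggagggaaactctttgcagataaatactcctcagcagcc
Ifi205: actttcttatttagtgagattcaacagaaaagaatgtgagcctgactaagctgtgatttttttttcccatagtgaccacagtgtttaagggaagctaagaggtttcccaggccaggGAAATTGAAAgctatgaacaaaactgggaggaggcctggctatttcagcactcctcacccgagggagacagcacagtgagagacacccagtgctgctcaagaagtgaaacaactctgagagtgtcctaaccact
Gbp2: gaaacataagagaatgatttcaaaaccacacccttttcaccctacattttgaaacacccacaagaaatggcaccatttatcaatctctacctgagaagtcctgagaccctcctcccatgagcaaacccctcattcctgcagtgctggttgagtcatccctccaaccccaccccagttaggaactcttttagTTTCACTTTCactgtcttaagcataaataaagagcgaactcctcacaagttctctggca
Isg15: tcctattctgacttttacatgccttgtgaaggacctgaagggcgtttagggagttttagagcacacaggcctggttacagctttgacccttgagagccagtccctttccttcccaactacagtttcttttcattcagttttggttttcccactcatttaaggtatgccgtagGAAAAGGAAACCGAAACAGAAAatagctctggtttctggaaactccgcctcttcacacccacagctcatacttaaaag
Irf1: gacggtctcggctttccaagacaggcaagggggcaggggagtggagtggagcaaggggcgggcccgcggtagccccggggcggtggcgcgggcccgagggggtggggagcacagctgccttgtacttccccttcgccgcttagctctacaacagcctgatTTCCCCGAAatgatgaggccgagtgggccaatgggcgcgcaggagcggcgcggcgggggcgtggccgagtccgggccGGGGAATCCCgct
Ifit3: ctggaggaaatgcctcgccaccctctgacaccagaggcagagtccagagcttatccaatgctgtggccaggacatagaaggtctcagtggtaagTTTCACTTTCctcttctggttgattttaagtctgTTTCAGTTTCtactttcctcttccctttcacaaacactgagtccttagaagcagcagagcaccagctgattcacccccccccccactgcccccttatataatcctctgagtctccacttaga

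**Figure D1:**
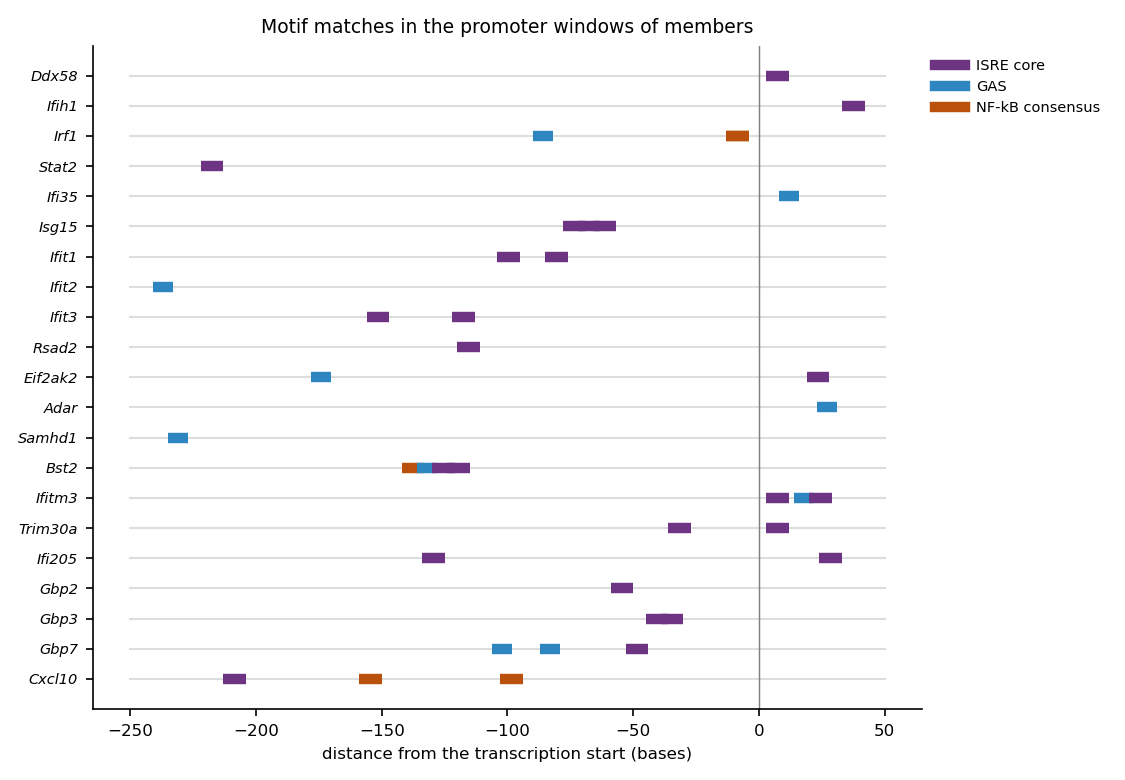
Motif matches in the promoter windows of the interferon-stimulated genes that held any; the horizontal axis is the distance in bases from the RefSeq start and each row is 1 gene with its windows drawn over each other. Purple bars (ISRE core) appear in 16 genes, blue bars (GAS) in 9 and orange bars (NF-kB consensus) in 3, and the NF-kB matches lie in Irf1, Bst2 and Cxcl10.

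Reads in the listed genes numbered 27398791 to 37559810 per library, so the lowest of the 43 genes still had 167 reads in its poorest library. No listed gene was at 0 in any library, so a gene silent in some library was not analysed here. Ifnb1 and Ifng were not among the listed genes, and their levels are not known from these data. Summed CPM of the 7 macrophage markers found (Adgre1, Csf1r, Cd68 and others) was 48649 to 52914 over the libraries. The 6 neutrophil markers found summed to 1393 to 1482 CPM in control and to 1868 to 2454 CPM in the treated libraries. The sum was higher in every treated group. Against control, 5, 4, 5 and 5 of them were called higher (AmTARS 1 h and 3 h, Pam3csk4 1 h and 3 h; adjusted p below 0.05 in limma). Of all genes tested, 18.9%, 18.8%, 23.9% and 24.7% were. With Pam3csk4 at 1 h, 1 of the 6 was lower (-0.33 on the log2 scale). After the correction for transcript length described below, 2, 4, 3 and 4 were higher (beside 10.0%, 12.3%, 14.1% and 21.3% of all genes). Ly6g, which defines neutrophils, was not among the listed genes, and the part of these cells in the results was not tested. Of the dendritic cell markers only Itgax and Ccr7 of 7 were listed (59.4 to 69.1 CPM summed), and none of the 4 plasmacytoid dendritic cell, 8 lymphocyte or 4 erythroid markers. All 4 fibroblast markers were listed, at 1253 to 1552 CPM summed over the libraries. In the order above, 3, 1, 0 and 2 of them were lower, beside 19.8%, 17.9%, 24.8% and 24.2% of all genes tested. After the correction 0 were lower in each (beside 7.16%, 8.94%, 13.6% and 21.5% of all genes). The part of fibroblasts in the results was not tested. In a bulk sample, fewer cells of a type and less RNA per cell cannot be told apart.

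In 2 treated groups the replicates stood apart for these genes. After 1 h of Pam3csk4, 39 of the 43 genes (90.7%) were higher in replicate 1 than in replicate 3, against 50.8% of all genes tested, with a median difference of 0.14 on the log2 scale. With AmTARS at 3 h, 10 of 43 (23.3%) were higher in replicate 1 than in replicate 3, against 50.6% of all genes, with a median difference of -0.04. In control, 26 of 43 were higher in replicate 2 than in replicate 3, which is 60.5%, against 50.5% of all genes. Counts that moved by more than 1.5 times, or whose balance turned, without 1 of those libraries are also given without it. The 2 libraries of Pam3csk4 at 3 h differed most over all genes (a chi-square of 7.501 per degree of freedom of recovered reads, against 3.579 to 4.632 in the other groups), so the shared spread may be too small for that group.

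In untreated macrophages the 43 genes already spanned a wide range. Per kilobase of transcript, the control level was highest for Ifitm3, which blocks virus entry, at 1125 CPM per kb. It was followed by Lgals3bp, a secreted glycoprotein, at 701 and by Bst2 (tetherin), which holds budding virions at the cell surface, at 487. The interferon regulatory factor gene Irf7 stood at 172 and Isg15 at 75.5. The lowest were Gbp7 at 2.52, Cxcl10 at 2.47 and Ifi205 at 1.83 CPM per kb. The order of Gbp7 and Cxcl10 in control is not separated by the spread of their libraries. After 3 h of Pam3csk4, Cxcl10 reached 13.1 and Ifi205 9.60 CPM per kb.

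Against control, the 43 genes did not move together. After 1 h of AmTARS, 10 of 43 were higher (23.3%) and 13 lower (30.2%) at an adjusted p below 0.05, beside 18.9% higher and 19.8% lower among all genes tested. At 3 h of AmTARS, 17 were higher (39.5%) and 10 lower (23.3%), beside 18.8% and 17.9%. After 1 h of Pam3csk4, 12 were higher (27.9%) and 19 lower (44.2%), beside 23.9% and 24.8%. At 3 h of Pam3csk4, 10 were higher (23.3%) and 16 lower (37.2%), beside 24.7% and 24.2%. The share of these genes that was higher with Pam3csk4 thus lay near the share of all genes at both times. The median log2 fold change of the 43 genes was -0.05, 0.02, -0.04 and -0.08 in the same order, and that of all genes tested lay between -0.01 and 0.00. These 4 comparisons share the control libraries.

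Most changes were small. Fold changes are given on the log2 scale throughout. The median size of the change, without its sign, was 0.17 to 0.22 on the log2 scale in these comparisons, against 0.14 to 0.18 for all genes tested. On the log2(CPM + 1) scale a called rise of at least 2-fold was found for no gene of the 43 at 1 h with either ligand (0.0263% of all genes tested with AmTARS and 0.131% with Pam3csk4). Cxcl10 with Pam3csk4 at 1 h fell just short on that scale (0.97), while its mean CPM of 12.0 was more than 2-fold that of control (5.51). At 3 h it was found for Cxcl10 with AmTARS (0.0438% of all genes) and for Cxcl10 and Ifi205 with Pam3csk4 (1.11%). No gene of the 43 was called at least 2-fold lower, beside 0.0526% and 0.0175% of all genes with AmTARS and 0.184% and 0.228% with Pam3csk4 at 1 h and 3 h. The summed level of the 43 genes was 7494 and 7620 CPM in control and 7229 to 7925 CPM in the treated libraries.

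**Figure D2:**
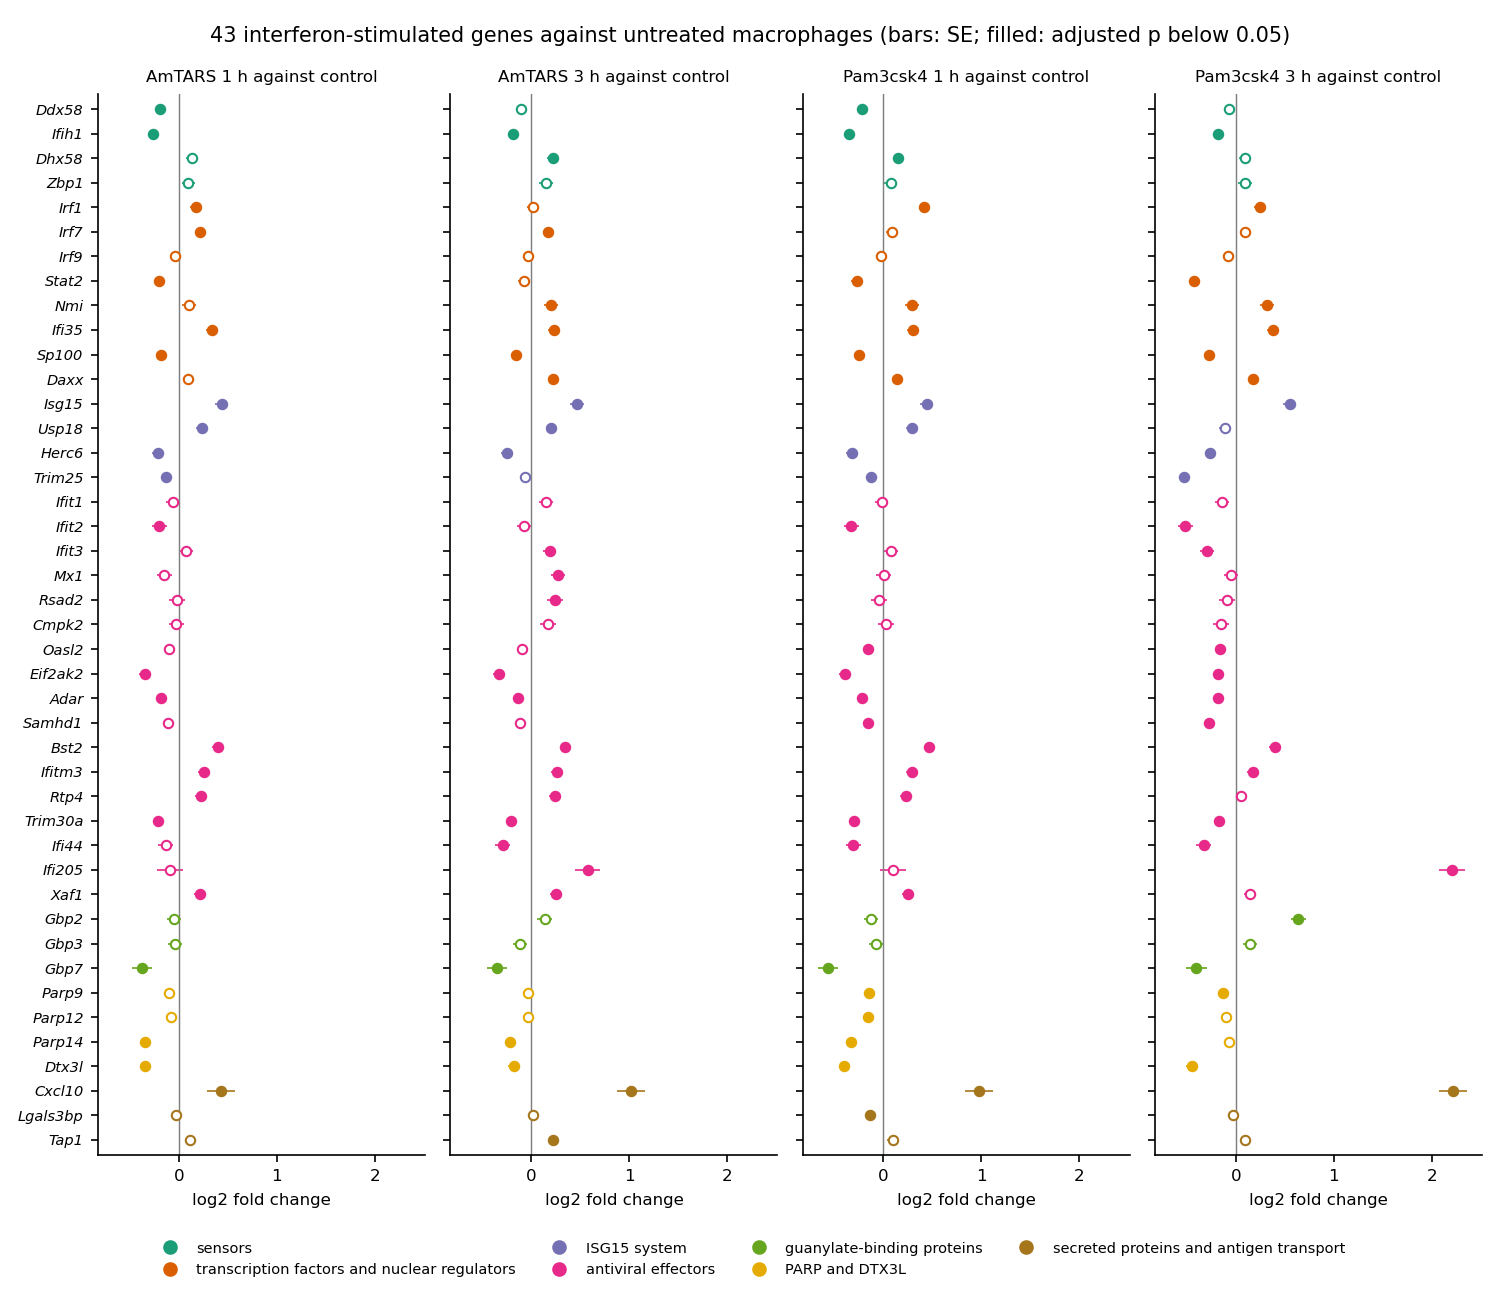
Log2 fold change of each of the 43 genes against untreated cells in 4 panels (AmTARS 1 h, AmTARS 3 h, Pam3csk4 1 h, Pam3csk4 3 h), with bars for the standard error, colours for the gene's role and filled points for an adjusted p below 0.05. Most points lie within 0.5 of 0 on both sides, while Cxcl10 and Ifi205 reach 2.22 and 2.21 after 3 h of Pam3csk4.

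The counts moved with single libraries. The numbers called among all genes tested also moved when a library was left out, so these shifts are not read as particular to these genes. With AmTARS at 1 h, 5 genes were higher without AmTARS replicate 2 and 4 without control replicate 2, and 7 were lower without control replicate 2. With AmTARS at 3 h, 9 were higher without AmTARS replicate 1 and 11 without control replicate 3, while 3 were lower without AmTARS replicate 1 and 5 without control replicate 2. With Pam3csk4 at 1 h, 7 were higher and 20 lower without Pam3csk4 replicate 1 (median -0.16), and 17 were higher and 14 lower without Pam3csk4 replicate 3 (median 0.01), which turned the balance. With Pam3csk4 at 3 h the counts stayed at 8 to 11 higher and 14 to 18 lower whichever library was left out.

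Some calls held in the fit as deposited and under each alternative that was tried (other filters and pseudocounts, quantile normalization, the correction for length described next, voom, the groups fitted in pairs, a term for the replicate number, and each library left out). With Pam3csk4 at 3 h these were 7 of the 10 higher genes (Irf1, Ifi35, Isg15, Bst2, Ifi205, Gbp2 and Cxcl10) and 11 of the 16 lower ones (Stat2, Sp100, Herc6, Trim25, Ifit2, Ifit3, Oasl2, Samhd1, Ifi44, Gbp7 and Dtx3l). With Pam3csk4 at 1 h they were 2 of 12 higher genes (Irf1 and Cxcl10) and 10 of 19 lower ones. With AmTARS at 3 h they were Daxx, Isg15, Ifi205 and Cxcl10 among the 17 higher genes, and Eif2ak2 among the 10 lower ones. With AmTARS at 1 h they were none of the 10 higher genes, and Sp100, Eif2ak2, Trim30a and Dtx3l among the 13 lower ones. The matching share of all genes tested is not given here. Whether these calls held more often than those of other genes was therefore not tested. With the term for the replicate number, several AmTARS calls at 3 h were lost. They were Irf7 (0.14), Ifi35 (0.17), Mx1 (0.22), Ifi44 (-0.25), Gbp7 (-0.33) and Dtx3l (-0.14) among the genes with library values. Trim25 with Pam3csk4 at 1 h (-0.10) was lost as well.

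The direction followed transcript length. Across 11014 genes with a known length, Spearman's rho of length and log2 fold change was -0.706 and -0.639 with AmTARS at 1 h and 3 h and -0.699 and -0.486 with Pam3csk4. It is a correlation across genes, which are not independent replicates. The longest transcripts of the 43 genes ranged from 678 to 7417 nt with a median of 3274 nt. Among the 22 at or below that median, 10, 14, 12 and 10 were higher in the order above, and 0, 0, 3 and 2 were lower. Among the 21 longer ones, 0, 3, 0 and 0 were higher, and 13, 10, 16 and 14 were lower. The matching shares of all genes of such lengths are not given here. With the trend across all genes, the split is not read as particular to the 43 genes.

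After a correction of each library for transcript length and GC content, fewer of the early calls remained. AmTARS left 2 genes higher and 6 lower at 1 h (10.0% and 7.16% of all genes after correction) and 9 higher and 5 lower at 3 h (12.3% and 8.94%). Pam3csk4 left 3 higher and 13 lower at 1 h (14.1% and 13.6%) and 8 higher and 17 lower at 3 h (21.3% and 21.5%). Called higher both as deposited and corrected were Irf7 and Xaf1 with AmTARS at 1 h, and Cxcl10, Daxx, Ifi205, Isg15, Mx1, Rsad2, Rtp4, Tap1 and Xaf1 with AmTARS at 3 h. With Pam3csk4 they were Cxcl10, Irf1 and Xaf1 at 1 h, and Bst2, Cxcl10, Gbp2, Ifi205, Ifi35, Irf1 and Isg15 at 3 h. Called only after the correction were Lgals3bp with AmTARS at 1 h, Oasl2 with AmTARS at 3 h, and Ifit1, Lgals3bp and Usp18 with Pam3csk4 at 3 h (all lower), and Parp14 with Pam3csk4 at 3 h (higher). Ifitm3, named after its values were seen, was called higher with Pam3csk4 at 3 h as deposited (0.17) and lower after the correction (-0.10). The cause of the length trend was not tested.

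**Figure D3:**
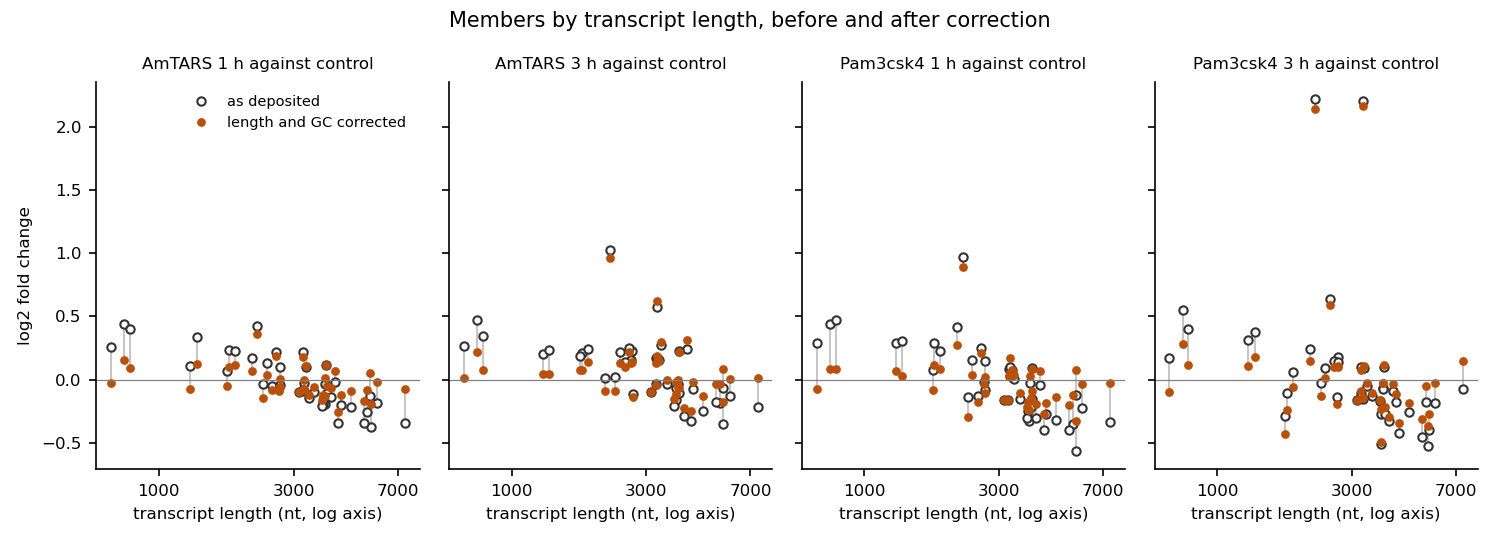
Log2 fold change of the 43 genes against transcript length (log axis, nt) in the 4 comparisons with control, as deposited (open points) and after the length and GC correction (filled points), joined by a line for each gene. As deposited, most of the shorter transcripts lie above 0 and most of the longer ones below it, and the correction brings most points towards 0 while Cxcl10 and Ifi205 keep their place after 3 h of Pam3csk4.

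The sensors of foreign nucleic acid changed little. Ddx58 encodes RIG-I and Ifih1 encodes MDA5, which detect viral RNA, Dhx58 encodes their regulator LGP2, and Zbp1 encodes a sensor of Z-form nucleic acid. Ifih1 stood at 86.1 and 84.8 CPM in control, 72.0 and 70.4 with AmTARS at 1 h, 74.4 and 75.2 with AmTARS at 3 h, 69.7 and 64.2 with Pam3csk4 at 1 h and 76.1 and 74.4 with Pam3csk4 at 3 h. Every treated library was below both control libraries. The log2 fold change of Ifih1 was -0.26, -0.19, -0.35 and -0.18 (AmTARS 1 h and 3 h, Pam3csk4 1 h and 3 h; SE 0.05; adjusted p 0.000644, 0.00732, 2.12e-05 and 0.00682). After the correction it was -0.08, -0.03, -0.12 and -0.05 and no longer passed in any of them. The AmTARS call at 3 h was also lost without AmTARS replicate 1 or control replicate 2 (-0.18 in both cases), and the Pam3csk4 call at 3 h without control replicate 2 (-0.17). Among the other sensors, Ddx58 was lower with both ligands at 1 h (-0.19 and -0.22), and both calls held after the correction. Dhx58 was higher with AmTARS at 3 h (0.22) and Pam3csk4 at 1 h (0.15), and both calls were lost after the correction (0.13 and 0.03). Zbp1 passed in none of these comparisons.

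Of the 8 transcription factors and nuclear regulators, 4 were higher and 2 lower with Pam3csk4 at 1 h and again at 3 h (beside 23.9% and 24.8% of all genes at 1 h and 24.7% and 24.2% at 3 h). After the correction these counts were 1 and 2 at 1 h (beside 14.1% and 13.6% of all genes). At 3 h they were 2 and 2 (beside 21.3% and 21.5%). With AmTARS, 3 were higher and 2 lower at 1 h, and 4 were higher and 1 lower at 3 h (beside 18.9% and 19.8%, and 18.8% and 17.9%). The correction left 1 higher and 1 lower at each time (beside 10.0% and 7.16% of all genes at 1 h, and 12.3% and 8.94% at 3 h). Irf1 encodes a transcription factor that amplifies interferon responses. Its level was 91.5 and 92.7 CPM in control, 106 and 102 with AmTARS at 1 h, 93.0 and 93.0 with AmTARS at 3 h, 129 and 117 with Pam3csk4 at 1 h and 115 and 103 with Pam3csk4 at 3 h. All 4 libraries with Pam3csk4 lay above all control libraries, and those of AmTARS at 3 h lay just above control. The log2 fold change with Pam3csk4 was 0.42 at 1 h (SE 0.06, adjusted p = 8.36e-06) and 0.24 at 3 h (SE 0.06, adjusted p = 0.00137). With AmTARS it was 0.17 at 1 h (adjusted p = 0.0198), lost after the correction (0.06), without AmTARS replicate 2 (0.15) and without either control library (0.16 and 0.18). At 3 h of AmTARS it was 0.01.

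Irf7, the master regulator of type I interferon genes in virus-infected cells, stood at 577 and 536 CPM in control, 653 and 641 with AmTARS at 1 h, 619 and 635 with AmTARS at 3 h, 632 and 551 with Pam3csk4 at 1 h and 572 and 618 with Pam3csk4 at 3 h. All AmTARS libraries were above both control libraries, and the Pam3csk4 libraries overlapped with control. The log2 fold change was 0.22 and 0.17 with AmTARS at 1 h and 3 h (SE 0.06; adjusted p 0.00539 and 0.0233) and 0.09 and 0.10 with Pam3csk4 (adjusted p 0.225 and 0.175). Under quantile normalization the AmTARS values were 0.11 and 0.08 and no longer passed, the 1 h call was lost without control replicate 3 (0.17), and the 3 h call was lost after the correction (0.13) and without control replicate 3 (0.12) or either 3 h AmTARS library (0.16 and 0.19).

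Stat2 encodes a part of ISGF3 that carries its activating domain. Its level was 197 and 192 CPM in control, 170.4 and 168 with AmTARS at 1 h, 178 and 191 with AmTARS at 3 h, 163 and 158 with Pam3csk4 at 1 h and 153 and 137 with Pam3csk4 at 3 h. Every treated library was below both control libraries, and the Pam3csk4 libraries at 3 h were the lowest. The fold change was -0.27 with Pam3csk4 at 1 h (SE 0.05, adjusted p = 0.000331) and -0.43 at 3 h (SE 0.05, adjusted p = 2.28e-06). With AmTARS it was -0.20 at 1 h (adjusted p = 0.00628), lost after the correction (-0.12) and without control replicate 2 (-0.18), and -0.08 at 3 h (adjusted p = 0.276).

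Ifi35, whose protein pairs with that of Nmi in an interferon-induced complex, stood at 53.7 and 54.1 CPM in control, 69.1 and 67.5 with AmTARS at 1 h, 63.9 and 63.5 with AmTARS at 3 h, 70.1 and 63.7 with Pam3csk4 at 1 h and 65.6 and 75.4 with Pam3csk4 at 3 h. All treated libraries exceeded both control libraries. The fold change was 0.34 and 0.24 with AmTARS and 0.31 and 0.38 with Pam3csk4 at 1 h and 3 h. After the correction, the 3 earlier of these calls were lost (0.12, 0.04 and 0.03), while the call with Pam3csk4 at 3 h stood. Nmi was higher with AmTARS at 3 h (0.20) and with Pam3csk4 at both times (0.29 and 0.32), and all 3 calls were lost after the correction (0.04, 0.07 and 0.11). Sp100, a nuclear body protein, was lower in all 4 comparisons (-0.16 to -0.27), and Irf9, the DNA-binding part of ISGF3, passed in none.

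Isg15 encodes a ubiquitin-like protein that is conjugated to other proteins. Its level was 57.9 and 56.2 CPM in control, 78.4 and 76.8 with AmTARS at 1 h, 77.1 and 81.7 with AmTARS at 3 h, 85.2 and 70.9 with Pam3csk4 at 1 h and 79.8 and 88.6 with Pam3csk4 at 3 h. All 8 treated libraries exceeded both control libraries. The log2 fold change was 0.44 and 0.47 with AmTARS and 0.44 and 0.55 with Pam3csk4 at 1 h and 3 h (SE 0.07; adjusted p 9.45e-05, 5.78e-05, 3.95e-05 and 2.09e-06). Isg15 is one of the shortest transcripts here (756 nt), and after the correction both 1 h calls were lost (0.15 and 0.08) while both 3 h calls stood.

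The other genes of the ISG15 system divided. Usp18 encodes the protease that removes ISG15 and also damps the interferon receptor. It was higher with AmTARS at 1 h and 3 h (0.23 and 0.21) and with Pam3csk4 at 1 h (0.29), and at 3 h of Pam3csk4 its libraries were below control at 66.5 and 67.9 CPM against 70.3 and 75.0 (-0.11, adjusted p = 0.115). After the correction the 3 rises of Usp18 no longer passed (0.10, 0.08 and 0.12), while the value at 3 h of Pam3csk4 was -0.24 and passed. Over the alternatives the adjusted p of the 3 rises reached 0.158, 0.24 and 0.0619. Herc6, the mouse ligase that attaches ISG15, was lower in all 4 comparisons (-0.22 to -0.32), and both AmTARS calls were lost after the correction (-0.09 and -0.13). Trim25, a ubiquitin ligase that activates RIG-I, stood at 256 and 254 CPM in control, 227 and 239 with AmTARS at 1 h, 243 and 245 with AmTARS at 3 h, 230.2 and 238 with Pam3csk4 at 1 h and 184 and 170.5 with Pam3csk4 at 3 h. All treated libraries were below both control libraries, by the most after 3 h of Pam3csk4. That fold change was -0.52 (SE 0.05, adjusted p = 2.45e-08). The 1 h values of -0.13 with AmTARS and -0.12 with Pam3csk4 turned to 0.05 and 0.08 after the correction and did not pass there. They were also lost without AmTARS replicate 2 or either control library (-0.09 to -0.14), and without Pam3csk4 replicate 1, either AmTARS library of 3 h or either control library (-0.10 to -0.13).

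The genes of antiviral effectors divided. Ifit1, Ifit2 and Ifit3 encode proteins that bind viral RNA and block its translation. Ifit1 stood at 93.0 and 94.1 CPM in control, 90.1 and 89.1 with AmTARS at 1 h, 101 and 107 with AmTARS at 3 h, 102 and 83.4 with Pam3csk4 at 1 h and 83.8 and 85.8 with Pam3csk4 at 3 h. Its AmTARS libraries at 3 h were above both control libraries and its Pam3csk4 libraries at 3 h below them, and it passed in no comparison with control (0.15 with AmTARS and -0.14 with Pam3csk4 at 3 h; adjusted p 0.0831 and 0.0893). After the correction the latter was -0.20 and passed. Ifit2 stood at 137 and 130.0 CPM in control, 114 and 118 with AmTARS at 1 h, 121 and 133 with AmTARS at 3 h, 119 and 94.5 with Pam3csk4 at 1 h and 98.3 and 88.0 with Pam3csk4 at 3 h. The Pam3csk4 libraries at 3 h were below all control and AmTARS libraries and overlapped with those at 1 h, and their fold change was -0.51 (SE 0.08, adjusted p = 1.9e-05). Ifit2 was also lower with Pam3csk4 at 1 h (-0.33, adjusted p = 0.00179), where replicate 3 was far below replicate 1 and the value without replicate 3 was -0.16 and did not pass. With AmTARS at 1 h its value of -0.20 (adjusted p = 0.0472) was lost after the correction (-0.15) and without any 1 of the 4 libraries compared (-0.16 to -0.24).

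Ifit3 stood at 166 and 162 CPM in control, 171 and 173 with AmTARS at 1 h, 186 and 188 with AmTARS at 3 h, 195 and 154 with Pam3csk4 at 1 h and 136 and 132 with Pam3csk4 at 3 h. Its reads may be shared with Ifit3b, a near copy that is listed too. The Pam3csk4 libraries at 3 h were below all others, and the fold change was -0.29 (SE 0.07, adjusted p = 0.0018). With AmTARS at 3 h it was 0.19 (adjusted p = 0.0411, from 0.000608 to 0.411 over the alternatives), lost after the correction (0.08), and the libraries exceeded both control libraries.

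Mx1 encodes a GTPase that blocks influenza virus; laboratory C57BL/6 mice are known to carry a defective allele. Its level was 38.1 and 37.4 CPM in control, 31.8 and 36.3 with AmTARS at 1 h, 44.0 and 48.0 with AmTARS at 3 h, 40.8 and 35.0 with Pam3csk4 at 1 h and 36.0 and 37.0 with Pam3csk4 at 3 h. The AmTARS libraries at 3 h were above all other libraries, with a fold change of 0.28 (SE 0.07, adjusted p = 0.00651). That call was lost without AmTARS replicate 3 (0.21) and with the term for the replicate number (0.22). Rsad2, which encodes viperin, was likewise higher with AmTARS at 3 h (0.24, adjusted p = 0.0224, from 0.000318 to 0.212 over the alternatives), at 105 and 118 CPM against 95.0 and 92.7 in control. Cmpk2, its neighbour in the genome, did not pass (0.17, adjusted p = 0.105). With Pam3csk4 none of Mx1, Rsad2 and Cmpk2 passed at either time.

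Eif2ak2 encodes PKR, a kinase that stops translation on double-stranded RNA. It stood at 72.8 and 68.4 CPM in control, 55.4 and 55.2 with AmTARS at 1 h, 54.0 and 58.2 with AmTARS at 3 h, 54.5 and 52.3 with Pam3csk4 at 1 h and 65.0 and 59.7 with Pam3csk4 at 3 h. All treated libraries were below both control libraries. The fold change was -0.35 and -0.33 with AmTARS and -0.40 and -0.18 with Pam3csk4 at 1 h and 3 h (SE 0.06; adjusted p 0.000155, 0.000291, 1.91e-05 and 0.0161). The last of these did not pass after the correction (-0.12), without control replicate 2 (-0.13) or without Pam3csk4 replicate 3 (-0.12).

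Bst2, short like Isg15 (792 nt), stood at 386 and 385 CPM in control, 511 and 506 with AmTARS at 1 h, 497 and 484 with AmTARS at 3 h, 572 and 499 with Pam3csk4 at 1 h and 482 and 535 with Pam3csk4 at 3 h. All treated libraries exceeded both control libraries, with fold changes of 0.40, 0.35, 0.47 and 0.40. After the correction the first 3 of them were 0.09, 0.08 and 0.08 and no longer passed, while the call with Pam3csk4 at 3 h stood. Ifi44, of unsettled function, stood at 36.9 and 38.5 CPM in control, 36.9 and 31.8 with AmTARS at 1 h, 28.9 and 32.4 with AmTARS at 3 h, 32.1 and 28.5 with Pam3csk4 at 1 h and 31.0 and 28.7 with Pam3csk4 at 3 h. It was lower with AmTARS at 3 h (-0.29), with Pam3csk4 at 1 h (-0.31) and with Pam3csk4 at 3 h (-0.33). The AmTARS call was lost without AmTARS replicate 1 (-0.21) or control replicate 3 (-0.26).

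Ifi205 belongs to the Ifi200 family of DNA-binding proteins. Its close relatives Ifi203, Ifi204, Mnda and Mndal are listed too, so its reads may be shared with them. It stood at 6.14 and 5.83 CPM in control, 5.97 and 5.17 with AmTARS at 1 h, 9.11 and 9.74 with AmTARS at 3 h, 7.96 and 5.24 with Pam3csk4 at 1 h and 27.9 and 35.0 with Pam3csk4 at 3 h. Both Pam3csk4 libraries at 3 h were far above all others, those of AmTARS at 3 h came next, and the 1 h libraries overlapped with control. On the log2(CPM + 1) scale, which understates the change of low genes, the rise was 2.21 with Pam3csk4 at 3 h (SE 0.13, adjusted p = 4.25e-11) and 0.58 with AmTARS at 3 h (SE 0.13, adjusted p = 0.00197).

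Guanylate-binding proteins are GTPases that attack pathogens and their vacuoles, and their genes are known targets of interferon gamma. Gbp2 stood at 35.4 and 35.0 CPM in control, 33.6 and 34.3 with AmTARS at 1 h, 38.6 and 39.1 with AmTARS at 3 h, 34.7 and 29.7 with Pam3csk4 at 1 h and 50.8 and 60.5 with Pam3csk4 at 3 h. The Pam3csk4 libraries at 3 h were above all others, with a rise of 0.64 (SE 0.08, adjusted p = 9.74e-07), while the AmTARS value at 3 h was 0.14 (adjusted p = 0.16). Gbp3 passed in no comparison with control. Gbp7, at the low end, stood at 14.7 and 13.5 CPM in control, 9.98 and 11.3 with AmTARS at 1 h, 9.65 and 12.2 with AmTARS at 3 h, 10.0 and 8.41 with Pam3csk4 at 1 h and 10.7 and 10.2 with Pam3csk4 at 3 h. All treated libraries were below both control libraries, with fold changes of -0.38 and -0.35 with AmTARS and -0.57 and -0.40 with Pam3csk4. Both AmTARS calls were lost after the correction (-0.19 and -0.18), without control replicate 2 (-0.32 and -0.29) and without 1 AmTARS library each (-0.30 without replicate 2 at 1 h, -0.19 without replicate 1 at 3 h). Reads of these family members may be shared.

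The genes of PARP enzymes and DTX3L, which transfer and bind ADP-ribose, were lower or did not pass as deposited. Dtx3l stood at 109.8 and 103 CPM in control, 85.7 and 81.8 with AmTARS at 1 h, 91.7 and 96.6 with AmTARS at 3 h, 83.1 and 77.8 with Pam3csk4 at 1 h and 80.7 and 74.8 with Pam3csk4 at 3 h. Every treated library was below both control libraries. The fold change was -0.35 and -0.18 with AmTARS and -0.40 and -0.45 with Pam3csk4 at 1 h and 3 h (SE 0.06; adjusted p 0.000107, 0.0164, 1.04e-05 and 1.61e-06), and the AmTARS call at 3 h was lost after the correction (-0.03), without AmTARS replicate 1 (-0.14) and without control replicate 2 (-0.14). Dtx3l and Parp9 overlap on opposite strands of chromosome 16 (35938470 to 35939151), and the sources used here do not say that counting used strand. Parp14, the longest transcript of the 43 (7417 nt), stood at 248 and 252 CPM in control, 196 and 197 with AmTARS at 1 h, 213 and 217 with AmTARS at 3 h, 198 and 199 with Pam3csk4 at 1 h and 241 and 236 with Pam3csk4 at 3 h. Its AmTARS libraries and its Pam3csk4 libraries at 1 h were below control, with fold changes of -0.35, -0.22 and -0.33, and all 3 calls were lost after the correction (-0.08, 0.01 and -0.03). With Pam3csk4 at 3 h its value was -0.07 as deposited, which did not pass, and 0.15 after the correction, which passed.

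Cxcl10 encodes a chemokine that draws activated T cells and is a target of both interferon and NF-kB. It stood at 4.80 and 6.23 CPM in control, 8.11 and 7.30 with AmTARS at 1 h, 11.5 and 12.8 with AmTARS at 3 h, 14.6 and 9.33 with Pam3csk4 at 1 h and 26.0 and 32.6 with Pam3csk4 at 3 h. Every treated library exceeded both control libraries, and the order of the group means ran from control over AmTARS at 1 h, then AmTARS at 3 h beside Pam3csk4 at 1 h, whose libraries overlap, to Pam3csk4 at 3 h. On the log2(CPM + 1) scale the rise was 1.02 with AmTARS at 3 h (SE 0.14, adjusted p = 3.83e-05), 0.97 with Pam3csk4 at 1 h (adjusted p = 2.09e-05) and 2.22 with Pam3csk4 at 3 h (adjusted p = 1.75e-10). The rise of 0.43 with AmTARS at 1 h (adjusted p = 0.0237) was lost with a pseudocount of 5 (0.28), after the correction (0.36), with voom on the recovered reads, and without AmTARS replicate 2 (0.36) or control replicate 2 (0.27). Tap1, which carries peptides to MHC class I, was higher with AmTARS at 3 h (0.23) and passed in none of the other comparisons with control.

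**Figure D4:**
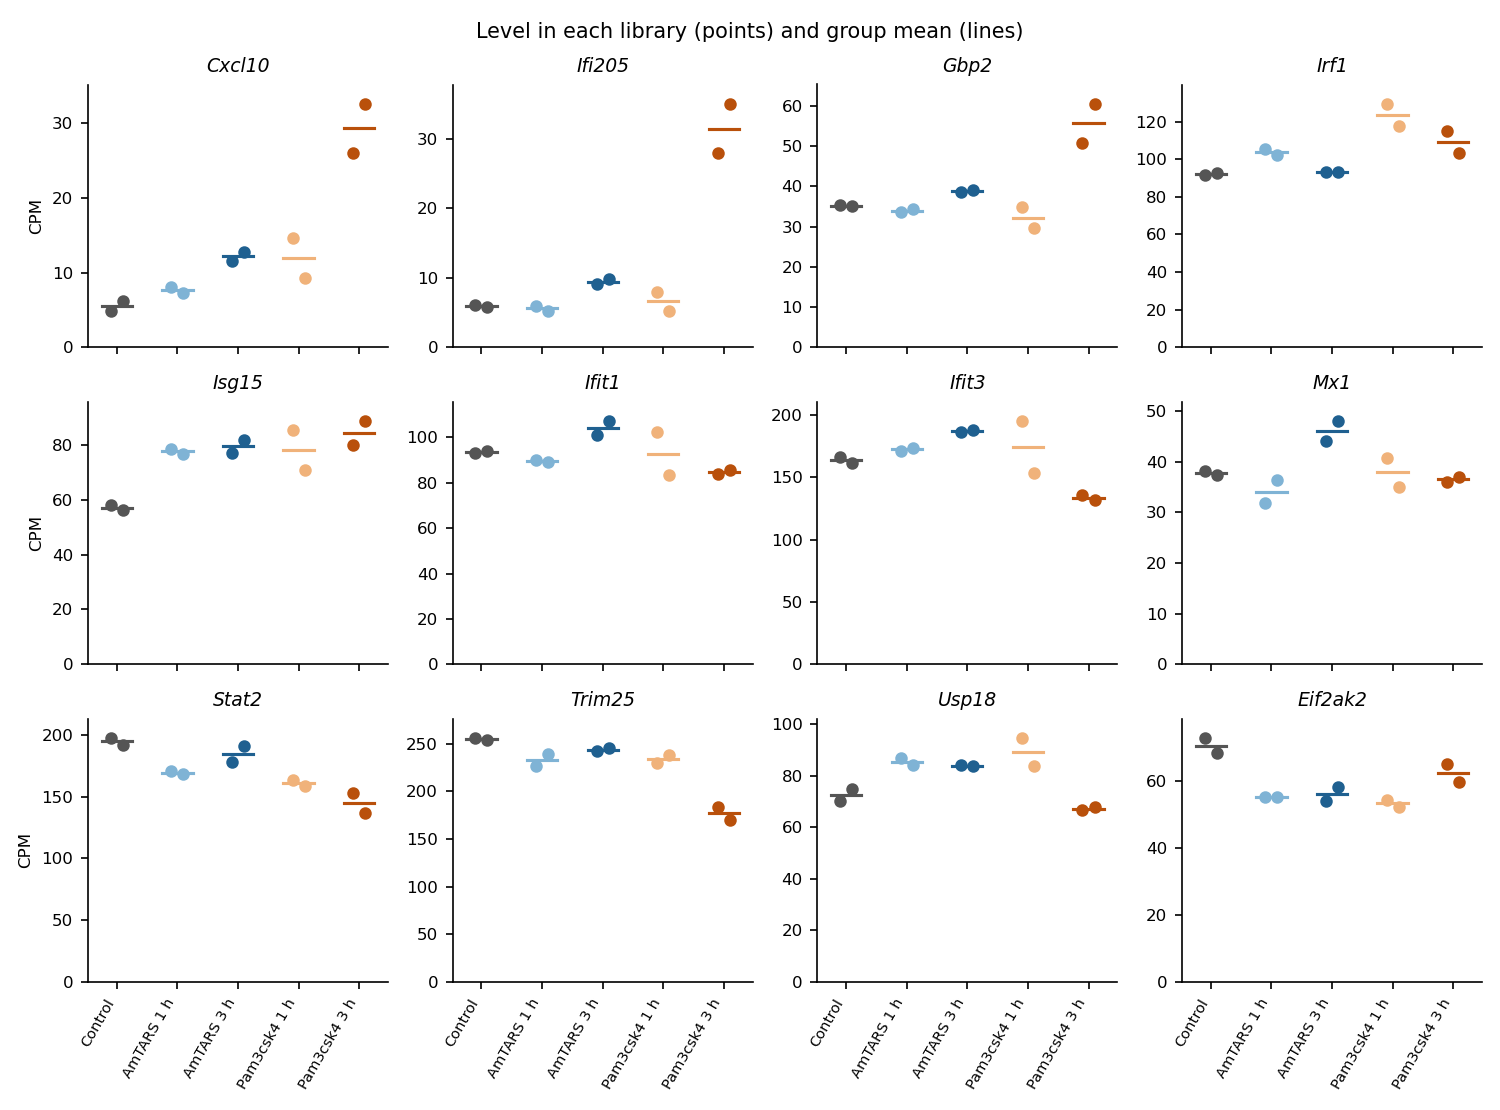
CPM of 12 interferon-stimulated genes in each library (points) with the group mean (line), on linear axes from 0, for control, AmTARS at 1 h and 3 h, and Pam3csk4 at 1 h and 3 h. Cxcl10, Ifi205 and Gbp2 are highest after 3 h of Pam3csk4, Ifit3, Trim25 and Stat2 are lowest there, and Isg15 is above control in every treated library.

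Set directly against each other at 1 h, the ligands differed for none of the 43 genes in limma, where 0.175% of all genes tested were called higher and 0.00877% lower with Pam3csk4. At an unadjusted p below 0.05 there were 6 of 43, and voom on the recovered reads called 0. Without Pam3csk4 replicate 3 at 1 h, 2 genes were called higher, and 1 without either of the Pam3csk4 libraries at 3 h. The largest difference was that of Cxcl10, at 14.6 and 9.33 CPM with Pam3csk4 and 8.11 and 7.30 with AmTARS (0.55, SE 0.14, adjusted p = 0.211). Such a p does not show that the ligands act alike at 1 h.

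At 3 h the ligands differed. With Pam3csk4, 6 were higher than with AmTARS (14.0%, beside 9.08% of all genes tested) and 12 lower (27.9%, beside 8.04%). Spearman's rho of transcript length and difference was 0.009 across genes here, and after the correction 6 were higher and 14 lower (10.6% and 10.9% of all genes). The higher genes were Ifi205 (1.63), Cxcl10 (1.20), Gbp2 (0.50), Gbp3 (0.26), Irf1 (0.23) and Parp14 (0.14). The lower genes were Ifit3 (-0.48), Trim25 (-0.46), Ifit2 (-0.44), Stat2 (-0.35), Rsad2 (-0.33), Cmpk2, Mx1 and Usp18 (-0.32 each), Ifit1 (-0.29), Dtx3l (-0.27), Rtp4 (-0.18) and Samhd1 (-0.16). All 18 kept their call after the correction. Without AmTARS replicate 3, 6 genes rather than 12 were lower.

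The 3 called differences with the greatest size were those of Ifi205, Cxcl10 and Gbp2. Ifi205 stood at 27.9 and 35.0 CPM with Pam3csk4 against 9.11 and 9.74 with AmTARS (SE 0.13, adjusted p = 8.66e-09). Cxcl10 stood at 26.0 and 32.6 against 11.5 and 12.8 (SE 0.14, adjusted p = 3.04e-06), and Gbp2 at 50.8 and 60.5 against 38.6 and 39.1 (SE 0.08, adjusted p = 5.19e-05). In each case the 2 pairs of libraries did not overlap. Among the lower genes, Ifit3 stood at 136 and 132 CPM with Pam3csk4 against 186 and 188 with AmTARS (SE 0.07, adjusted p = 3.69e-05). Trim25 stood at 184 and 170.5 against 243 and 245 (SE 0.05, adjusted p = 3.91e-07), and Usp18 at 66.5 and 67.9 against 84.2 and 83.7 (SE 0.06, adjusted p = 0.000348). These pairs did not overlap either. The calls of Ifit1 (-0.25) and Mx1 (-0.26) were lost without AmTARS replicate 3, that of Irf1 (0.15) without Pam3csk4 replicate 2, and that of Parp14 under several alternatives, among them quantile normalization (0.08). By role, 8 of 17 antiviral effector genes were lower and 1 higher with Pam3csk4, 2 of the 4 ISG15 system genes were lower, and 2 of the 3 guanylate-binding protein genes were higher. Of all genes tested, 9.08% were higher and 8.04% lower. The sets are small, and no difference between roles was tested.

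**Figure D5:**
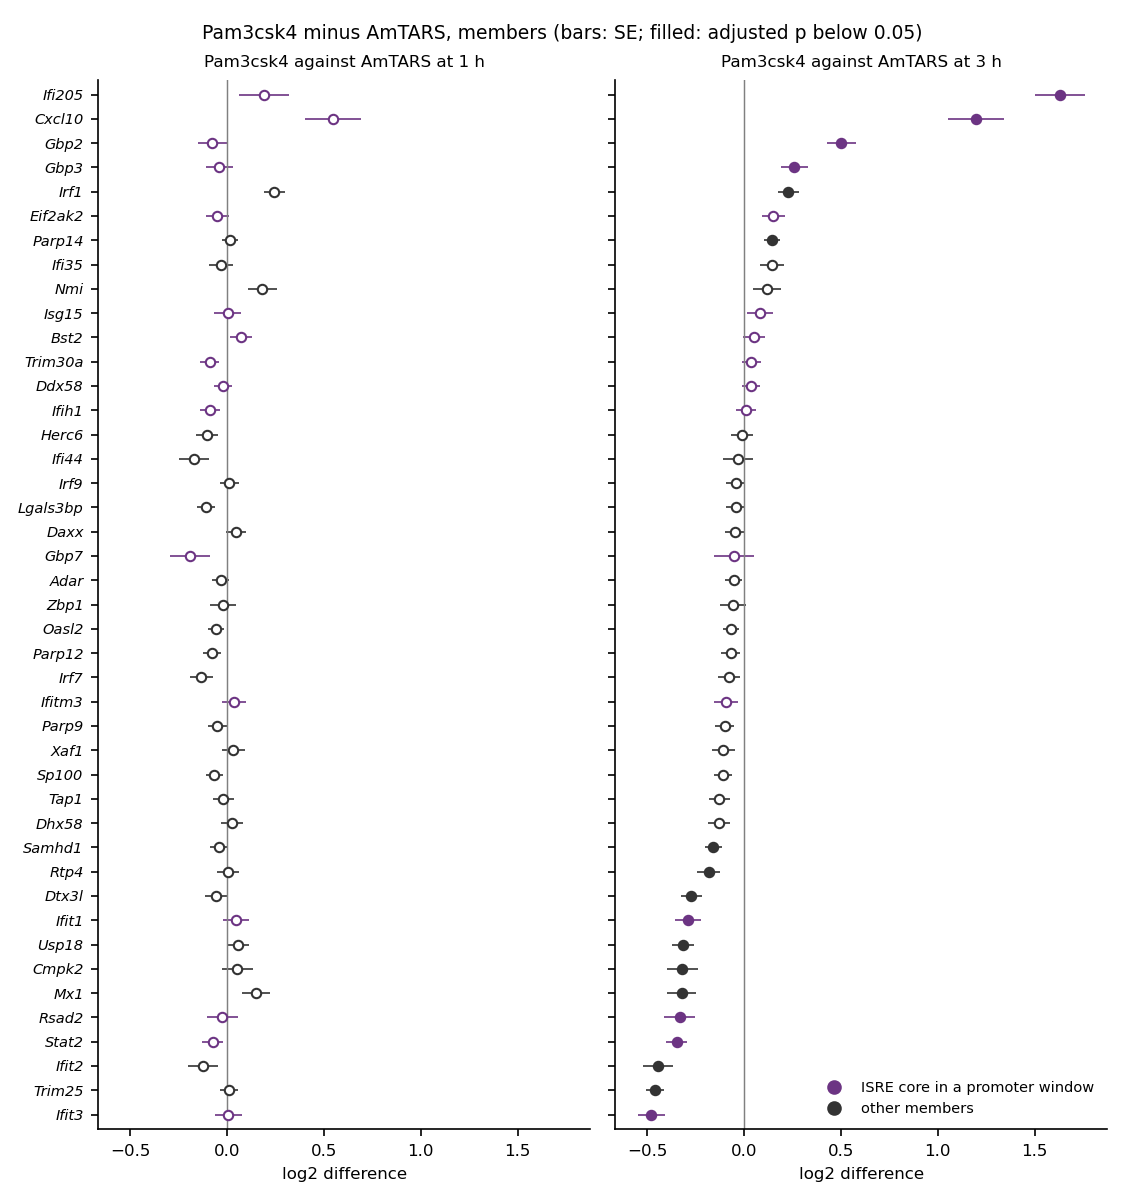
Log2 difference of Pam3csk4 minus AmTARS for each of the 43 genes at 1 h (left) and 3 h (right), ordered by the 3 h value, with bars for the standard error, filled points for an adjusted p below 0.05 and purple for genes with an ISRE core in a promoter window. No point is filled at 1 h, and at 3 h 6 are filled to the right of 0 and 12 to the left.

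Over time with AmTARS, 3 of the 43 genes were higher at 3 h than at 1 h (6.98%, beside 1.81% of all genes tested) and 0 lower (beside 0.57%; voom also called 0 lower, and 12 of 43 had an unadjusted p below 0.05). They were Ifi205 (0.67), Cxcl10 (0.60) and Mx1 (0.42). This count was 1 without either AmTARS library of 1 h, 0 without AmTARS replicate 3 of 3 h, and 5 without either Pam3csk4 library of 1 h. With Pam3csk4, 9 were higher at 3 h (20.9%, beside 16.2%) and 6 lower (14.0%, beside 15.3%), shares near those of all genes. The higher ones were led by Ifi205 (2.11), Cxcl10 (1.25) and Gbp2 (0.77), and the lower ones by Usp18 and Trim25 (-0.40 each) and Ifit3 (-0.37). Replicate 1 and replicate 3 of Pam3csk4 stood apart at 1 h. Without replicate 3 fewer genes were called higher and more lower, and without replicate 1 fewer were called lower. The part of the replicate gap in these shifts was not tested.

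The change from 1 h to 3 h itself differed between the ligands. It was greater with Pam3csk4 for 3 (6.98%, beside 5.71% of all genes tested) and smaller for 7 (16.3%, beside 3.49%). Ifi205, Gbp2 and Cxcl10 were the former, and Stat2, Usp18, Trim25, Ifit1, Ifit3, Mx1 and Cmpk2 the latter. For Ifit1, Mx1 and Cmpk2 the mean change from 1 h to 3 h was above 0 with AmTARS (0.21, 0.42 and 0.20) and below 0 with Pam3csk4 (-0.12, -0.05 and -0.18), and only that of Mx1 with AmTARS passed by itself. The number of smaller changes was 4 without AmTARS replicate 2 or 3 of 1 h, AmTARS replicate 3 of 3 h or Pam3csk4 replicate 1 of 1 h, and 11 without Pam3csk4 replicate 3 of 1 h.

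The genes with an ISRE core in a promoter window had members on both sides of 0. After 3 h of Pam3csk4, 6 of the 16 were higher than control and 6 lower, with a median of -0.08 (beside 24.7% and 24.2% of all genes). Of the 20 genes whose windows held none, 4 were higher and 9 lower, with a median of -0.13. With AmTARS at 3 h, 7 of the 16 were higher and 4 lower (median 0.14), and 6 of the 20 were higher and 5 lower (median -0.03), beside 18.8% and 17.9% of all genes. From 1 h to 3 h of Pam3csk4, 8 of the 16 rose and 2 fell, while 0 of the 20 rose and 2 fell (beside 16.2% and 15.3% of all genes), a difference for which no test was made. Among the 8 are Cxcl10, Ifi205 and Gbp2, whose promoters are printed above. That count of 8 rests partly on Pam3csk4 replicate 3 of 1 h, without which 4 of all 43 genes rose. Isg15 and Ifit3, both with ISRE cores, changed in opposite directions, with 0.55 and -0.29 against control after 3 h of Pam3csk4.

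Genes of the interferon pathway outside the 43 were taken from a second textbook list. Of the 5 receptor genes listed, 4 were higher after 3 h of AmTARS and 4 after 3 h of Pam3csk4, and none was lower (beside 18.8% and 24.7% of all genes higher). Ifnar1, the signalling chain of the type I receptor, stood at 158 and 158 CPM in control, 151 and 154 with AmTARS at 1 h, 188 and 182 with AmTARS at 3 h, 147 and 147 with Pam3csk4 at 1 h and 201 and 204 with Pam3csk4 at 3 h. The 3 h libraries of both ligands exceeded all control libraries, with fold changes of 0.23 with AmTARS and 0.36 with Pam3csk4. Ifnar2 rose by 0.16 and 0.24, and Ifngr1 and Ifngr2, the chains of the interferon gamma receptor, by 0.17 and 0.19 with AmTARS and 0.25 and 0.30 with Pam3csk4. The AmTARS call of Ifngr1 was lost after the correction (0.09).

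Among the genes of receptor kinases, Jak1 and Jak2 were lower after 1 h of AmTARS (-0.29 and -0.23) and of Pam3csk4 (-0.34 and -0.32), and the correction left both calls of Jak1 but neither of Jak2. By 3 h of Pam3csk4, Jak2, the kinase of the interferon gamma receptor, was higher at 134 and 159 CPM against 72.6 and 75.1 in control (0.97, SE 0.07, adjusted p = 5.3e-10) and 70.3 and 79.2 with AmTARS. Jak1 was lower (-0.18), a call lost after the correction (-0.06). Of 4 interferon regulatory factor genes, Irf3 and Irf5 were higher after 3 h of Pam3csk4 (0.29 and 0.20) and Irf8 and Irf2 lower (-0.36 and -0.22). Irf8, a lineage factor of macrophages, stood at 144 and 146 CPM with Pam3csk4 at 3 h against 184 and 188 with AmTARS and 188 and 184 in control.

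Among 13 genes that lead to type I interferon, 5 were higher and 5 lower after 3 h of Pam3csk4 (beside 24.7% and 24.2% of all genes). Ikbke, a kinase that phosphorylates IRF3, rose to 277 and 287 CPM from 157 and 149 in control (0.87) and to 197 and 199.8 with AmTARS (0.37). Myd88, the adaptor of TLR2, rose by 0.50 with Pam3csk4 at 3 h. Tlr4, Tlr7 and Tlr9 were lower in all 4 comparisons with control, with -0.66, -0.64 and -0.57 after 3 h of Pam3csk4. Of 7 brakes on the pathway, 4 were higher after 3 h of either ligand (beside 18.8% of all genes with AmTARS and 24.7% with Pam3csk4). Socs3 rose by 1.96 and Socs1, an inhibitor of JAK kinases, by 0.67 with Pam3csk4 at 3 h, and by 0.35 and 0.43 with AmTARS. Socs1 stood at 5.82 and 5.41 CPM with Pam3csk4, 4.53 and 4.66 with AmTARS and 3.06 and 3.24 in control.

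A further list of 51 tested interferon-stimulated genes was counted the same way. After 3 h of Pam3csk4, 21 were higher and 15 lower with a median of 0.06 (beside 24.7% and 24.2% of all genes). After the correction 12 were higher and 18 lower (beside 21.3% and 21.5%), which turned the balance. After 3 h of AmTARS 17 were higher and 10 lower with a median of 0.08 (beside 18.8% and 17.9%). The corrected counts there were 7 and 6 (beside 12.3% and 8.94%). The largest change after 3 h of Pam3csk4 was that of Gbp5, at 10.4 and 12.3 CPM against 4.77 and 5.64 in control and 4.69 and 5.81 with AmTARS (0.99, SE 0.12, adjusted p = 9.62e-07). Slfn2 rose by 0.64 and Psmb10, an immunoproteasome subunit, by 0.50, and Gbp9 and Irgm2 were lower (-0.51 and -0.44). Set against AmTARS at 3 h, 5 of the 51 were higher with Pam3csk4 and 6 lower (beside 9.08% and 8.04% of all genes). The corrected counts of that comparison were 4 and 12 (beside 10.6% and 10.9%).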

How the data were processed

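Poly-A selected mRNA of 10 libraries in 5 groups was sequenced with a stranded kit, per the labels' protocols. Per the submitters' processing notes, reads were aligned to mm10 with STAR 2.5.1 and R 3.3.0 was used. How reads were counted and scaled, and with which annotation, is not given in the sources used here. What the authors deposited are log2(CPM + 1) values. In each library 100% of them corresponded to whole reads (within 0.1 read) after undoing the log and 1 scale factor, and the CPM of listed genes summed to 959638 and 960837 in control and to 998260 to 1037796 in treated libraries.

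The 11407 genes whose mean reached 1 CPM were fitted with limma 3.58.1 in R 4.3.3 on the deposited log2 values, with 1 mean per group, all 5 groups sharing the spread (residual degrees of freedom 5, prior 14.7), an intensity trend, and Benjamini-Hochberg adjustment over all of them within each of 9 comparisons (threshold 0.05). SE is the moderated standard error. Fold changes are on the log2(CPM + 1) scale. Length and GC content came from GENCODE M21 (the longest transcript of each symbol); the correction removed natural splines with 5 degrees of freedom for each from every library. The planned count test was replaced by voom on the recovered reads, since the values are log2. A simulated data set with known changes was used to test the fit. Chosen after seeing the data were voom, a crossed pairing and a fit on genes with a length. Deviations of same-numbered libraries had correlations of -0.179 to 0.204. The numbers were not taken as pairs, though such values cannot exclude pairing.

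The genes, lists and alternatives were chosen with earlier results of these data known. Library values are given for the 8 genes with the largest called change in each comparison with control, the 3 with the largest called difference between the ligands, and Isg15, Ifit1, Irf1, Irf7, Stat2 and Cxcl10. Of each other list the 5 largest changes after 3 h of Pam3csk4, and Ifnar1, Ifnar2, Irf3, Irf8 and Socs1, could be named. One further gene named by that rule is not reported here. Figures used matplotlib 3.10.9 in Python 3.11.15.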

Additional observations from a re-analysis of the deposited data

Results flagged for a closer look

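For 10 of the 43 genes the change from 1 h to 3 h differed between Pam3csk4 and AmTARS in the test of that difference itself (an interaction term in limma). It was greater with Pam3csk4 for Ifi205 by 1.44 on the log2 scale (SE 0.18, adjusted p = 1.67e-05, and 8.77e-07 to 0.000259 over the alternatives). For Gbp2 it was greater by 0.58 (SE 0.11, adjusted p = 0.000978, 4.97e-05 to 0.00707 over the alternatives). For Cxcl10 the difference was 0.65 (SE 0.20, adjusted p = 0.0481), and its adjusted p ran from 0.0011 to 0.242; among others it did not pass with a filter at 5 CPM (0.65), a pseudocount of 0.25 (0.66) or without Pam3csk4 replicate 3 of 1 h (0.35).

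In the other direction, Trim25 differed by -0.47 (SE 0.07, adjusted p = 6.17e-05, 4.41e-07 to 0.00112 over the alternatives). Ifit3 differed by -0.49 (adjusted p = 0.00235, 2.69e-06 to 0.0824) and Mx1 by -0.47 (adjusted p = 0.00464, 0.000901 to 0.147). Usp18 differed by -0.37 (adjusted p = 0.00363, 0.000616 to 0.178) and Cmpk2 by -0.37 (adjusted p = 0.0422, 0.00106 to 0.394). Ifit1 differed by -0.33 (adjusted p = 0.0281, 0.000275 to 0.375) and Stat2 by -0.27 (adjusted p = 0.0253, 0.0015 to 0.136). For 39 of the 43 genes replicate 1 was above replicate 3 after 1 h of Pam3csk4, and the number of negative differences called was 4 without replicate 1 and 11 without replicate 3. The part of that gap in these differences was not tested beyond leaving either library out.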

How the results depend on the processing

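Counts are of the 43 genes, higher or lower in the group named first. Those over all genes tested moved too when a library was left out. Leaving out 1 library at a time gave, against control, 4 to 11 higher and 7 to 15 lower with AmTARS at 1 h, 9 to 20 and 3 to 11 with AmTARS at 3 h, 7 to 17 and 14 to 20 with Pam3csk4 at 1 h, and 8 to 11 and 14 to 18 with Pam3csk4 at 3 h. Pam3csk4 against AmTARS gave 0 to 2 higher and 0 lower at 1 h, and 4 to 7 and 6 to 12 at 3 h. From 1 h to 3 h it gave 0 to 5 higher and 0 lower with AmTARS and 4 to 9 and 3 to 13 with Pam3csk4, and 2 to 4 and 4 to 11 for the difference of these changes. Where such a fit left 1 library in a group, that library was assumed to vary like the other groups. The length and GC correction gave 2 higher and 6 lower with AmTARS at 1 h, 9 and 5 with AmTARS at 3 h, 3 higher with Pam3csk4 at 1 h, 10 lower from 1 h to 3 h of Pam3csk4, and 5 higher for the difference of changes. Under it, 3 values reversed without passing: Trim25 with AmTARS (0.0485) and Pam3csk4 (0.0782) at 1 h and Parp14 with AmTARS at 3 h (0.015). Fits of 2 groups alone gave 2 higher for Pam3csk4 against AmTARS at 1 h, 6 higher and 1 lower from 1 h to 3 h of AmTARS, and 5 higher and 3 lower from 1 h to 3 h of Pam3csk4. Quantile normalization gave 10 lower from 1 h to 3 h of Pam3csk4. The cause of these shifts was not tested.

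A replicate block gave 7 higher and 5 lower with AmTARS at 3 h and 2 lower for the difference of changes. Whether shared numbers pair the libraries is not stated. Deviations of same-numbered libraries had correlations of mixed sign (-0.179, -0.0377, 0.204 and 0.117), which cannot settle it. A crossed block for AmTARS at 1 h gave 11 higher and 15 lower. The planned edgeR test was not run. The 5 CPM filter, the other pseudocounts, no filter and voom kept each count within 1.5 times. Libraries held 27398791 reads or more and each group 2 libraries; which of these limits the precision more was not compared.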
